A study of Mus musculus with 19 samples.

Results

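The transcription factors of hair-type papilla keratinization studied here were 7 genes, Lef1, Msx1, Msx2, Dlx3, Hoxc13, Foxn1 and Foxq1, chosen by name because each is known from the growth and keratinization of hair or nail and hair-type keratins are also made in the filiform papillae of the tongue. The choice was made with earlier results of these data known, so the shares of all genes set beside their counts are a description. All 7 were among the 24680 genes above 0 in the deposited table and among the 22745 tested. PolyA RNA of whole tongue epithelium from 19 mice was sequenced in bulk, 15 days after transgenes were switched on. The study asked what the papillomavirus oncogenes E6 and E7 and an active form of the Hippo pathway effector YAP do alone and together. The N group held 5 mice in which neither E6 and E7 nor active YAP could be induced. Of these, mice 1 to 3 carried Krt14-CreERT and LSL-rtTA, mouse 4 carried LSL-rtTA alone, and mouse 5 carried Krt14-CreERT with tetON_E6-E7 and tetON_YAP1S127A but no rtTA. The E group held 5 mice with Krt14-CreERT, LSL-rtTA and tetON_E6-E7. The Y group held 3 mice with Krt14-CreERT, LSL-rtTA and tetON_YAP1S127A, and the EY group held 6 mice with all 4 alleles. All mice received tamoxifen in the tongue and doxycycline and carried an H2B-GFP reporter. Transgenes could be switched on only in cells in which the Krt14 promoter had driven Cre, and the whole epithelium was then taken, so RNA of cells without transgene was measured too. A gene's value is its TPM, a length-scaled share of the reads that adds up to 1000000 in each mouse, and 8273506 to 11010724 reads per mouse were recovered from these values.

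Filiform papillae are the keratinized spines of the upper tongue surface, and their cells build a hard core from keratins that are otherwise typical of the hair shaft. In the hair follicle, Wnt signals act through LEF1 and bone morphogenetic proteins act through MSX and DLX homeodomain factors as matrix cells stop dividing and begin to differentiate. HOXC13 and FOXN1 then act on hair keratin genes as the shaft forms, and mice that lack either one have brittle or absent hair.

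The promoters are shown because each factor has a known short binding core that can be looked for in them. RefSeq promoter entries of build GRCm38.p6, each covering the 250 bases before a start, were present for 4 of the 7 genes, namely Lef1, Msx1, Msx2 and Foxn1. Hoxc13, Dlx3 and Foxq1 had no entry. Both strands were searched for CTTTGA of LEF1 and the TCF factors, TTTATNG of HOX13 proteins, TAATTG of MSX and DLX proteins, GACGC of FOXN1, TGTTTA of forkhead proteins and GGAATG of TEAD, the DNA-binding partner of YAP. TTTATNG and TGTTTA can overlap each other. The motifs were chosen after the expression values were known. Of 32851 mouse promoters, 13.8% held CTTTGA, 9.81% TTTATNG, 7.17% TAATTG, 22.6% GACGC, 12.03% TGTTTA and 12.6% GGAATG. Of the 4 genes with an entry, Lef1 held CTTTGA and TTTATNG in one of its 4 entries and GACGC in others, and Msx2 held GACGC. The remaining motifs were not in these windows. Lef1 had 4 entries in which to match, while the percentages are per promoter. Its entry with CTTTGA and TTTATNG lies downstream of its other entries, which begin at 131110047, 131110073 and 131112541 on chr3. The Lef1 entry at chr3:131156044-131156293 on the plus strand and the Msx2 entry at chr13:53472781-53473030 on the minus strand are given 5′ to 3′, with the matches in capitals. A match describes letters only and does not show that a factor binds there.
Lef1: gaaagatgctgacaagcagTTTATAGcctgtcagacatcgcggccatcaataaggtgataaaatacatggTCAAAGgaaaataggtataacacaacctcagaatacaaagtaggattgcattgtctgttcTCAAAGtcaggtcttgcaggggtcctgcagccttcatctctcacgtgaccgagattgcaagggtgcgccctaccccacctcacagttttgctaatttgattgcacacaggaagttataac
Msx2: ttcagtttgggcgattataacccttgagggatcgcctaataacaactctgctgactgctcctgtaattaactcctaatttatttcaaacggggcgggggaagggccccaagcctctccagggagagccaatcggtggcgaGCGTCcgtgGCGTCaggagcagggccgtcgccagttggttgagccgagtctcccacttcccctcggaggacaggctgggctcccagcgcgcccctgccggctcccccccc

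Differences between groups were tested with limma in 1 model across the 22745 genes, on log2(TPM + 0.1), with p-values adjusted by Benjamini-Hochberg. To be called, a gene needed an adjusted p below 0.01 together with a log2 fold change beyond 1 in either direction. Comparing EY with N, 5 of the 7 genes were called lower, against 5.71% of all genes tested, and 0 were called higher, against 12.6%. By unadjusted p below 0.05 limma had 6 of 7, beside 48.6% of all genes, and limma voom on the recovered reads called 6. The share of all genes that voom called is not given here, so voom counts describe the named genes only. In 5 of 7 genes all EY mice had less than any N mouse, which held for 6.49% of all genes. Comparing Y with N, limma called 0 of 7 lower, against 1.11% of genes, and 0 higher, against 3.47%. Unadjusted p was below 0.05 for 6 of the 7 in that comparison and for 28.9% of all genes, voom called 1, Foxn1, and in 5 of 7 all Y mice had less than any N mouse, against 5.59% of genes.

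In E against N limma called 0 of 7, against 1.2% of genes, with 0 at an unadjusted p below 0.05, beside 14.8% of all genes, and 0 by voom. All comparisons with N share the same 5 N mice. Over all genes tested, the median log2 fold change in EY against N was 0.33, and it became 0.01 after median-of-ratios scaling of each mouse. The median of the 7 genes was −2.19 before and −2.57 after that scaling. For Y against N it was −1.06 and −1.23, beside 0.13 and −0.03 for all genes. Because the samples were whole epithelium, fewer cells of a type and less RNA per cell cannot be told apart.

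**Figure D1:**
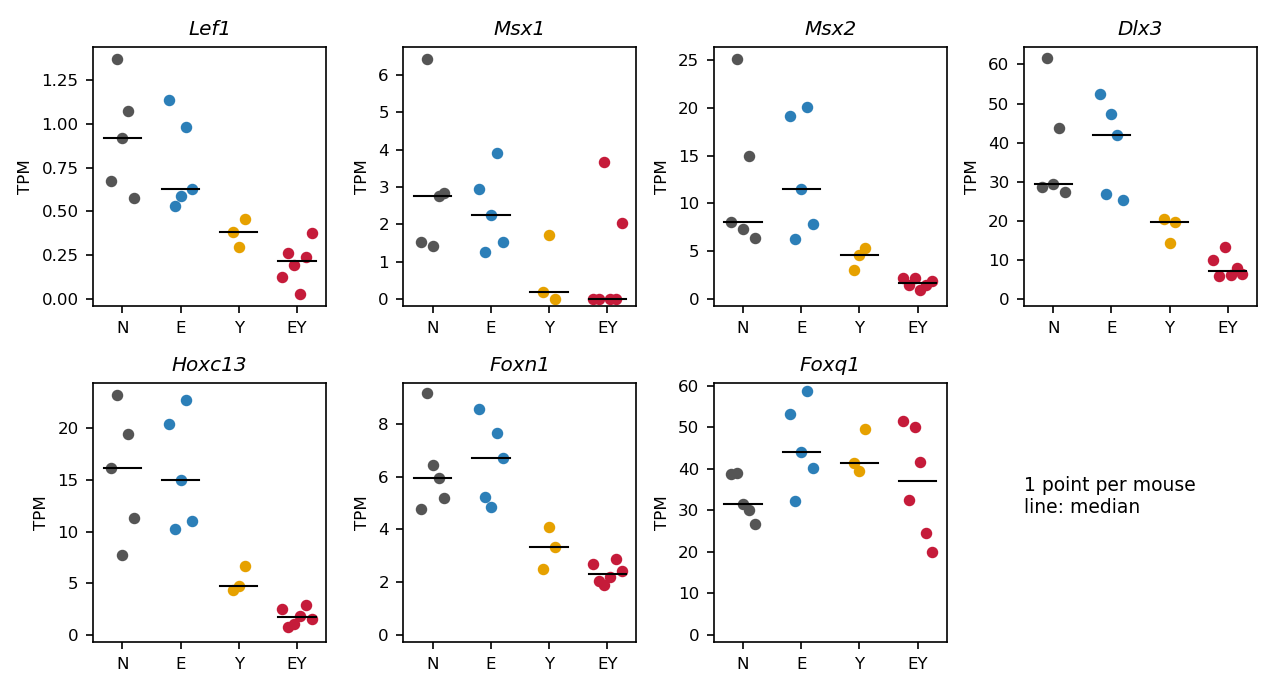
TPM of the 7 genes, 1 point per mouse, with the group median as a line; the vertical axes are linear and differ between genes. Hoxc13, Msx2 and Dlx3 step down from N and E to Y and again to EY with no overlap at either step, and Foxq1 does not step down, with its Y mice just above its N mice and its EY mice on both sides of them.

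Levels of different genes were compared as reads per kb of exon scaled to the reads of each mouse, because the TPM of the table divide by the whole gene with its introns. That matters most for Lef1, whose gene spans 113.886 kb with 8.788 kb of exon, and least for Foxq1, whose 4.843 kb are all exon. On the exon scale the N medians were 10.4 for Dlx3, 10.2 for Foxn1, 9.17 for Hoxc13, 5.74 for Foxq1, 2.75 for Msx2, 2.12 for Lef1 and 0.697 for Msx1. Each neighbour in that order overlapped the next across the N mice. In EY the order was led by Foxq1 at 6.03, with Foxn1 at 3.37, Dlx3 at 2.33, Hoxc13 at 0.857, Msx2 at 0.528, Lef1 at 0.465 and Msx1 at 0. Among the EY neighbours only Dlx3 and Hoxc13 did not overlap. In Y the medians on this scale were 7.14 for Foxq1, 6.51 for Dlx3, 4.98 for Foxn1, 2.67 for Hoxc13, 1.58 for Msx2, 0.825 for Lef1 and 0.0390 for Msx1. Foxq1 was thus the fourth of the genes in N and the most abundant in Y and EY on this scale, with Foxn1 and Dlx3 overlapping it in EY.

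Lef1 encodes the DNA-binding partner of beta-catenin in Wnt signalling. Its TPM in N mice 1 to 5 were 0.675, 1.37, 0.921, 1.08 and 0.575. In E they were 1.14, 0.529, 0.591, 0.980 and 0.628, and in Y they were 0.380, 0.296 and 0.459. The 6 EY mice had a lowest value of 0.0282, a median of 0.215 and a highest of 0.379. All Y and all EY mice lay below all N mice, while Y and EY overlapped. These values rest on 118 to 267 reads in N and 5 to 73 in EY. The log2 fold change in EY against N was −1.81 (SE 0.32, 95% interval −2.49 to −1.13; limma adjusted p 0.000192, lower in 6 of 6 mice). With a pseudocount of 1 TPM the change was −0.67 and not called, because that pseudocount is larger than most Lef1 values. The change in Y was −1.06 (limma adjusted p 0.0747, lower in 3 of 3 mice), or −0.47 with that pseudocount. Voom on the recovered reads gave larger changes, −2.59 in EY, which was called, and −1.34 in Y, which was not. The size for Lef1 thus depended on how low values were handled.

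Msx1 encodes a homeodomain repressor that acts downstream of bone morphogenetic proteins. In N its TPM were 1.53, 6.43, 1.40, 2.76 and 2.84, and in E they were 2.94, 1.26, 2.25, 3.92 and 1.53. Y had 0.176, 1.7 and 0. EY mice 3 and 6 had 3.67 and 2.02, and the other 4 EY mice had 0. The EY mice thus fell into those with no Msx1 read and a pair inside the N range, and the groups overlapped. The fold change in EY against N was −3.13 on the log2 scale (SE 0.99, limma adjusted p 0.017, 4 of 6 mice below all N mice) and was not called. It was called without EY mouse 3, at −3.86 with adjusted p 0.00177, and without EY mouse 6, at −3.69 with adjusted p 0.00514. Leaving out any other mouse left it uncalled, and adjusted p ranged up to 0.0459 over the 19 fits. Median-of-ratios scaling and voom called it as well, at −3.37 and −3.55, with adjusted p over the 11 other settings from 0.00208 to 0.0703. With 4 EY mice at 0 the size depended on the pseudocount, at −1.23 with 1 TPM and −5.30 with 0.01 TPM. In Y against N the change was −2.86 (SE 1.199, limma adjusted p 0.12, 2 of 3 mice below all N mice), with −1.31 and −4.12 at the same pseudocounts. It ran from −4.005 without Y mouse 2 to −1.92 without Y mouse 3 and was called in none of these fits. Mice 3 and 6 of EY also had the highest EY values of the fibroblast genes Twist1, at 8.56 and 4.11 TPM, and Pdgfra, at 2.82 and 1.28 TPM. The part of fibroblasts in the Msx1 values was not tested.

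Msx2 encodes the related factor that acts in the hair matrix and cortex. Its N values were 8.01, 25.2, 7.34, 15.02 and 6.36 TPM and its E values 19.1, 6.28, 11.5, 20.1 and 7.80. Y mice had 3.03, 4.62 and 5.38 TPM, and EY had a lowest of 0.934, a median of 1.7 and a highest of 2.21. Y lay below N, and EY below Y, without overlap, although N itself spread widely. In EY against N the log2 fold change was −2.65 (SE 0.37, 95% interval −3.44 to −1.86; limma adjusted p 1.87e-05, lower in 6 of 6 mice). The Y mice differed from N by −1.32 (SE 0.45, limma adjusted p 0.0544, lower in 3 of 3 mice).

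Dlx3 encodes a homeodomain factor needed for the hair shaft and inner root sheath. N mice had 28.6, 61.7, 29.5, 43.7 and 27.3 TPM, and E mice had 52.4, 26.8, 47.3, 42.0 and 25.3. The Y values were 20.3, 14.2 and 19.8, and those of EY ran from 5.73 through a median of 7.08 to 13.3. The groups again stepped down without overlap, with the highest EY mouse just under the lowest Y mouse. The log2 fold change was −2.19 in EY against N (SE 0.27, 95% interval −2.76 to −1.63; limma adjusted p 3.93e-06, lower in 6 of 6 mice). It was −1.01 in Y against N (SE 0.32, limma adjusted p 0.0408, lower in 3 of 3 mice).

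Hoxc13 encodes the homeodomain factor most closely tied to hair keratin genes. Its TPM in N were 16.1, 23.3, 7.72, 19.4 and 11.3, and in E they were 20.4, 10.2, 14.97, 22.7 and 11.0. In Y they were 4.30, 4.70 and 6.69. The EY mice had a lowest of 0.798, a median of 1.68 and a highest of 2.90, from 11 to 34 reads. N and E covered one range, Y lay wholly below it, and EY lay wholly below Y. The log2 fold change in EY against N was −3.08 (SE 0.34, 95% interval −3.80 to −2.37; limma adjusted p 1.12e-06, lower in 6 of 6 mice). For Y it was −1.48 (SE 0.41, limma adjusted p 0.0189, lower in 3 of 3 mice), which missed the threshold. Without N mouse 3, the N mouse with the lowest Hoxc13, it was −1.70 and called, with adjusted p 0.00811. Adjusted p ranged from 0.00811 to 0.0758 over the fits that each left out a mouse.

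Foxn1 encodes the forkhead factor missing in nude mice, which form hair that fails to keratinize properly. Its N values were 4.78, 9.18, 6.42, 5.94 and 5.19 TPM, and its E values were 8.54, 5.23, 4.85, 7.64 and 6.69. Y had 2.49, 4.08 and 3.33, and EY had a lowest of 1.89, a median of 2.30 and a highest of 2.88. Both Y and EY lay below every N mouse, and Y and EY overlapped. In EY against N the log2 fold change was −1.36 (SE 0.19, 95% interval −1.77 to −0.95; limma adjusted p 1.89e-05, lower in 6 of 6 mice). The value in Y was −0.90 (SE 0.23, limma adjusted p 0.0129, lower in 3 of 3 mice), so both thresholds were missed narrowly. Median-of-ratios scaling, quantile normalization and voom each called it, at −1.10, −1.07 and −1.02, and adjusted p over the 11 other settings ranged from 0.0036 to 0.0621.

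Foxq1 encodes a forkhead factor needed for the inner medulla of the hair shaft. Its N values were 38.6, 39.0, 31.4, 30.1 and 26.7 TPM, and its E values were 53.1, 32.2, 44.1, 58.7 and 40.1. Y had 41.3, 39.4 and 49.5, and EY ranged from 20.04 through a median of 37.0 to 51.4. EY mice lay both above and below the N mice, and Y lay just above them. The log2 fold change in EY against N was 0.08 (SE 0.23, 95% interval −0.40 to 0.55; limma adjusted p 0.823, above the N mean in 3 of 6 mice), and it flipped to −0.30 with median-of-ratios scaling, −0.34 with quantile normalization and −0.10 with voom. Its value in Y was 0.39 (limma adjusted p 0.372, higher in 3 of 3 mice), and it fell to 0.20 with median-of-ratios scaling, 0.094 with quantile normalization and 0.25 with only the 3 N mice that carry Krt14-CreERT and LSL-rtTA.

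**Figure D2:**
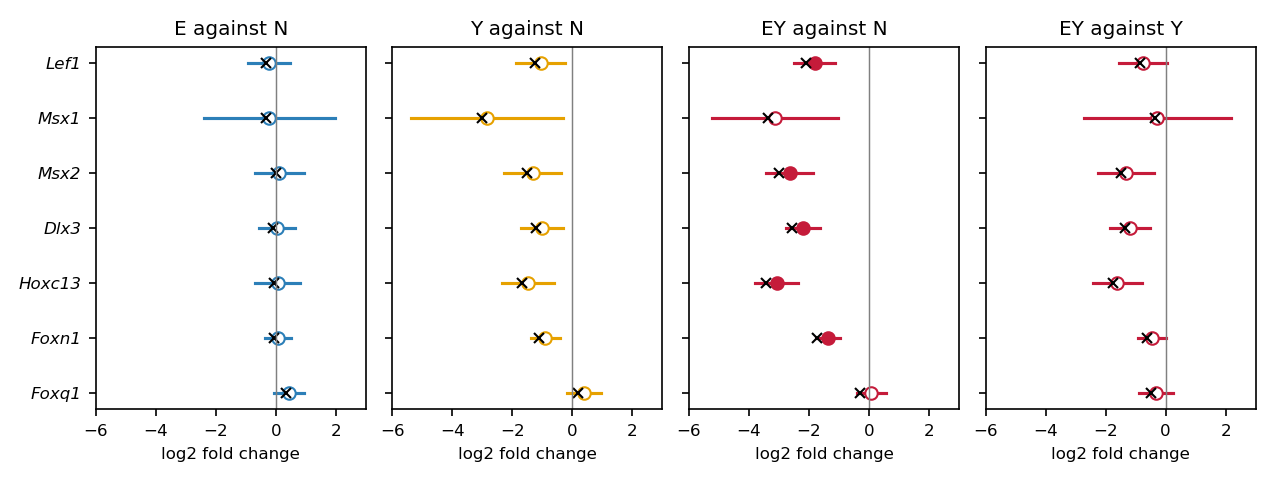
Log2 fold changes with 95% intervals in 4 comparisons; filled circles are called, open circles are not, and crosses give the value after median-of-ratios scaling. In EY against N the called genes lie between −3.08 and −1.36, while Foxq1 sits at 0.08 and at −0.30 once scaled.

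Each gene was also set against Foxq1 as a ratio within each mouse, which no scaling of a mouse can move except through the pseudocount. Foxq1 was chosen as the reference after its values were seen, so these ratios are a description. The mean log2 ratio to Foxq1 differed between EY and N by −3.16 for Hoxc13, −2.72 for Msx2, −2.27 for Dlx3, −1.89 for Lef1 and −1.44 for Foxn1. It lay below all N mice in 6 of 6 EY mice for Hoxc13, Msx2, Dlx3 and Foxn1, and in 5 of 6 for Lef1. Between Y and N the differences were −1.87, −1.72, −1.41, −1.45 and −1.30 for the same genes in the same order. Their separation in Y follows from the values above, since these genes lay below N and Foxq1 above it. For Msx1 the differences were −3.21 in EY and −3.25 in Y, with 4 of 6 and 2 of 3 mice below all N mice.

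The question of whether E6 and E7 added to YAP was addressed by EY against Y. There limma called 0 of 7 genes lower, against 0.928% of all genes, with 3 at an unadjusted p below 0.05, beside 23.9% of all genes, and 0 by voom. In 3 of 7, Hoxc13, Msx2 and Dlx3, every EY mouse lay below every Y mouse, against 3.37% of genes. The log2 fold changes of these were −1.61, −1.32 and −1.18 (limma adjusted p 0.0171, 0.0706 and 0.026, each lower in 6 of 6 mice). Against E, limma called 5 of 7 lower in EY, compared with 4.99% of genes, and the called genes were Hoxc13 at −3.14, Msx2 at −2.77, Dlx3 at −2.23, Lef1 at −1.58 and Foxn1 at −1.43. In the interaction, which asks whether EY differs from the sum of the changes in E and Y, limma called 0 of 7, against 0.176% of genes. There 4 had an unadjusted p below 0.05, beside 13.5% of all genes, voom called 0, and Hoxc13 had the value farthest from 0, −1.66 (SE 0.53, limma adjusted p 0.156).

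Some of the genes also moved together from mouse to mouse inside a group. N mouse 2 and E mice 1 and 4 lay above their group mean, on the log2 scale, in 7 of 7 genes, and E mouse 2 did so in 0 of 7. In unscaled TPM, N mouse 2 had the highest value of its group for all 7 genes, with Foxq1 only slightly ahead of N mouse 1. Median-of-ratios scaling divides by a factor that was highest of its group in N mouse 2, at 1.02, and E mouse 4, at 1.03. In E mouse 1 it was the lowest of E, at 0.915. These positions are not given after scaling, nor is the share of all genes with the same positions. For the 10 pairs among Hoxc13, Foxn1, Lef1, Msx2 and Dlx3, Pearson's r of deviations from the group means ran from 0.196 to 0.782 over the 19 mice, as a description. For Msx1 it was 0.425 with Msx2, 0.338 with Lef1, 0.325 with Dlx3, 0.117 with Foxn1 and −0.090 with Hoxc13. The 6 pairs with Foxq1 ran from −0.148 to 0.574, and 4 of them were above 0. Hence the 7 genes did not all vary together.

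Each gene was also compared with 15592 others, or 15593 for Lef1, of at least 1 TPM on average, by Pearson's r of log2(TPM + 0.1) over the 19 mice. Because the groups differ, r of the deviations from the group means is given as the second value. Closest to Hoxc13 were Hephl1 with 0.973 and 0.760, Csdc2 with 0.964 and 0.692, and the hair keratin-associated gene Krtap3-2 with 0.962 and 0.703. Those closest to Foxn1 were Kcnh6 with 0.970 and 0.815, Miat with 0.948 and 0.733, and the BMP pseudoreceptor gene Bambi with 0.948 and 0.739. Msx2 was closest to Dlx3 itself, with 0.962 and 0.782, then to Cux1 with 0.957 and 0.803 and to the Wnt inhibitor gene Apcdd1 with 0.954 and 0.773. Dlx3 was closest to 2310046K23Rik with 0.971 and 0.836, Mxi1 with 0.965 and 0.762, and Ankrd35 with 0.964 and 0.763. For Lef1 they were Mical2 with 0.946 and 0.801, 9930012K11Rik with 0.946 and 0.823, and Dzip1 with 0.942 and 0.761. Msx1 and Foxq1 had other neighbours. Those of Msx1 were Saa1 with 0.906 and 0.834, Fzd1 with 0.891 and 0.823 and Dkk3 with 0.870 and 0.782, and those of Foxq1 were 1110051M20Rik with 0.821 and 0.799, Mst1 with 0.804 and 0.741 and Irf3 with 0.791 and 0.759.

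Hair keratin genes are known targets of HOXC13 and FOXN1, and 15 of the 16 listed were in the table and tested, while Krt85 was not analysed here. Comparing EY mice with N, 13 of 15 were called lower and 0 higher by limma, with a median log2 fold change of −5.03, or −5.40 after scaling. Krt40 and Krt82, the other two, were at 0 to 0.939 TPM in all mice. Among Y mice only Krt35 was called, at −2.13 (limma adjusted p 0.00732, lower in 3 of 3 mice), and the median was −1.70. Krt36, the most abundant, had 8371, 6536, 3151, 8416 and 7878 TPM in N, 1565, 2813 and 3130 in Y, and 105, 329 and 850 as the lowest, median and highest in EY. Neither Y nor EY reached the N range. Its change in EY was −4.35 (limma adjusted p 3.32e-07, lower in 6 of 6 mice). Summed over the list, the TPM were 12645, 10247, 4541, 12079 and 10861 in N, 2214, 4071 and 4487 in Y, and 186, 471 and 1149 as lowest, median and highest in EY. N mouse 3, lowest of N in Hoxc13, was also lowest in this sum.

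**Figure D3:**
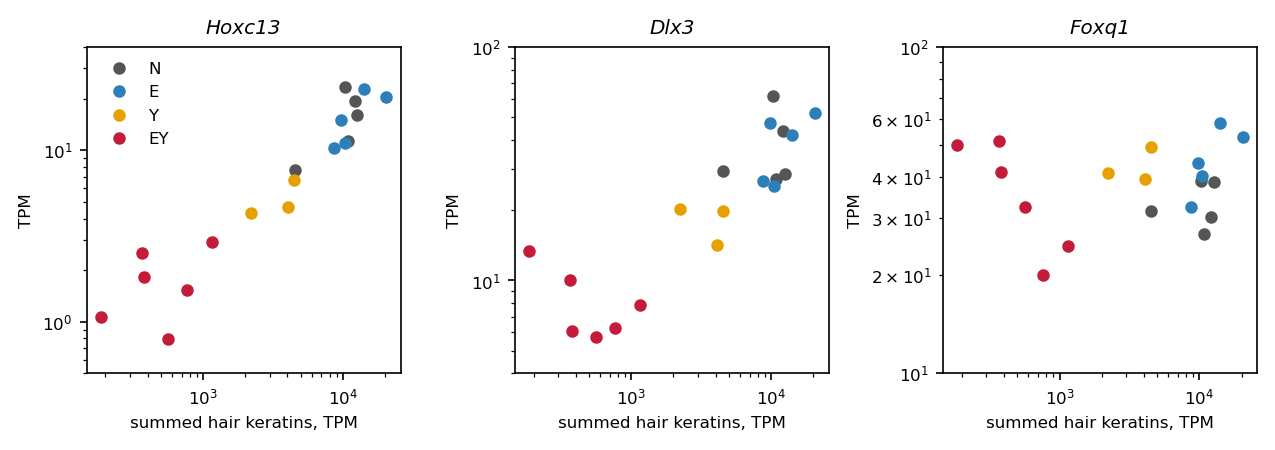
TPM of Hoxc13, Dlx3 and Foxq1 against the summed TPM of the hair keratins, 1 point per mouse, both axes logarithmic. Across all 19 mice Hoxc13 and Dlx3 are low where the keratin sum is low, and Foxq1 is not; inside the EY group the mouse with the highest Dlx3, 13.3, has the lowest keratin sum, 186.

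Over the 19 mice, with the groups pooled and so mostly showing the difference between groups, r with the logarithm of the keratin sum was 0.949 for Hoxc13, 0.900 for Foxn1, 0.890 for Msx2, 0.863 for Dlx3, 0.859 for Lef1, 0.569 for Msx1 and 0.086 for Foxq1. With deviations from the group means it was 0.573 for Hoxc13, 0.436 for Foxn1, 0.389 for Lef1, 0.262 for Msx2, −0.118 for Dlx3, −0.135 for Msx1 and −0.365 for Foxq1. These values are a description, and differences between the genes were not tested.

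Promoter entries were present for 9 of the 16 hair keratin genes. CTTTGA was in 5 of these 9, Krt31, Krt32, Krt33b, Krt34 and Krt39, and TTTATNG was in 5 of 9, Krt31, Krt34, Krt40, Krt82 and Krt84. Both were in 2 of 9, Krt31 and Krt34, and in 499 of 32851 promoters, or 1.52%. A CTTTGA match lay at nearly the same place in Krt31, Krt32, Krt33b and Krt34, at 244, 247, 247 and 240 bases before the start. The TTTATNG matches of Krt31 and Krt34 lay at 158 and 154. These are neighbouring genes of the same family on chr11, so their matches are not independent and the counts are a description. TGTTTA was in Krt32, Krt39, Krt82 and Krt84, and GACGC was in Krt31. TAATTG and GGAATG were in 0 of 9. Krt31 and Krt34 are printed because they hold both CTTTGA and TTTATNG, at chr11:100050552-100050801 and chr11:100041555-100041804 on the minus strand of GRCm38.p6. Capitals mark matches to CTTTGA and TTTATNG, and in Krt31 also to GACGC, on either strand.
Krt31: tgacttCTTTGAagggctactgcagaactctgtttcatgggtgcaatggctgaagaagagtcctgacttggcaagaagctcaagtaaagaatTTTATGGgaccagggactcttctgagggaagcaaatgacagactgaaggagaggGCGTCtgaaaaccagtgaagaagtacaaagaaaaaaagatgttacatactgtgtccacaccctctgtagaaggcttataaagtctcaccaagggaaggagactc
Krt34: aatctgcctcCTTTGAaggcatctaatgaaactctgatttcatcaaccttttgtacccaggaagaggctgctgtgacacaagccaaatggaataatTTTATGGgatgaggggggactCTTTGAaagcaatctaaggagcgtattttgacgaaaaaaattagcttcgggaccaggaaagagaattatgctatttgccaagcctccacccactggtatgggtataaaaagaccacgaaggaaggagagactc
In the EY mice Krt31 had a lowest of 2.05, a median of 4.65 and a highest of 18.6 TPM, beside 54.6 to 217 in N, a log2 change of −4.74 (limma adjusted p 2.97e-06, lower in 6 of 6 mice). Krt34 had 1.46, 11.7 and 23.8 in EY, beside 102 to 534 in N, a change of −5.48 (limma adjusted p 1.01e-05, lower in 6 of 6 mice).

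Of 18 other structural genes of hair, 13 were in the table and 12 tested. For EY, 6 were called lower, Tchh, Tchhl1, Padi1, Dsg4, Gprc5d and Hephl1, and 1 higher, S100a3, whose call was lost with scaling, at 0.95. The median was −1.98, and in Y against N 3 were called lower, Tchh, Dsg4 and Gprc5d, with a median of −0.89. After scaling Hephl1 was called lower in Y as well. Tchh, for the inner root sheath protein trichohyalin, had 721 to 1565 TPM in N, 212 to 440 in Y and 89.5 to 344 in EY. Gprc5d was listed at 0 in all Y and EY mice and at 0.260 to 7.20 TPM in N.

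Other factors of hair and papilla formation did not share one direction. Of 15 tested, limma called Sp6 and Cux1 lower and Runx1 and Sox9 higher in EY against N, with a median of −0.31. After scaling 4 were called lower, with Ovol1 and Trps1 added, and 2 higher, and the median was −0.69. For Y it called Runx1 higher and 0 lower, voom called 2 higher and 0 lower, 7 had an unadjusted p below 0.05, and the median was −0.19, or −0.39 after scaling. Runx1 had 0.0460 to 0.231 TPM in N, 0.530 to 0.666 in Y and 1.05 to 1.49 in EY, with no overlap between these groups, and its change in EY was 2.68 (limma adjusted p 1.14e-07, higher in 6 of 6 mice). Of 20 listed relatives in the HOX, DLX, MSX and FOXN families, 6 were tested, Dlx1, Dlx2, Dlx4, Dlx5, Foxn2 and Foxn3. The listed HOX genes and Msx3 were among 13 not analysed here, so no HOX or MSX relative was tested. Of the 6, 2 were called lower in EY, Dlx4 at −1.89 and Dlx5 at −2.16, and the median was −1.15. In Y limma called 0 of these 6, with 1 at an unadjusted p below 0.05, 0 by voom and 1, Dlx4, after scaling.

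Lists of Wnt and BMP pathway genes were also compared. They hold target genes and inhibitors beside ligand genes, so their RNA does not measure the signals that reach the 7 factors. Of 12 Wnt genes tested, limma called Notum at −2.55 and Lgr6 at −2.12 lower in EY against N and the ligand gene Wnt10b higher at 1.77, which became 1.46 and uncalled after scaling. Scaling also raised the number called lower from 2 to 5, with Tcf7l1, Tcf7l2 and Rnf43 added, and voom called 5 lower and 1 higher. The median was −0.76. In Y it called 0 of 12, with 8 at an unadjusted p below 0.05 and 1 by voom. Of 19 BMP genes tested, 6 were called lower in EY, the ligand gene Bmp2, Smad9, Smad6, the target genes Id2 and Id4, and Bambi, and 0 higher, with a median of −0.32. After scaling 7 were called lower, with Id3 added, and the median was −0.69. In Y 3 were called lower, Id2, Id4 and Bambi, with a median of −0.23, or −0.43 after scaling. Bambi had 29.8 to 72.5 TPM in N, 12.2, 19.9 and 20.1 in Y, and 4.57 to 7.37 in EY, and its changes were −2.95 in EY and −1.39 in Y (limma adjusted p 5.73e-09 and 0.000817, lower in every mouse of each group).

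**Figure D4:**
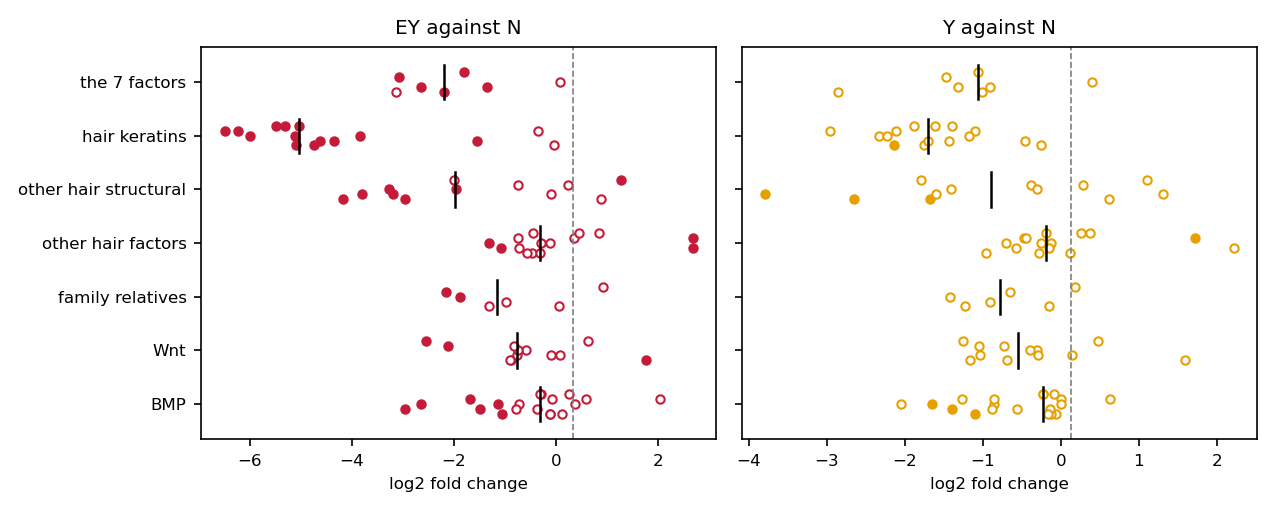
Log2 fold changes of the 7 factors and 6 gene lists in EY against N and Y against N, 1 point per gene; filled points are called, the short bar is the list median and the dashed line the median of all genes tested. The hair keratins have the lowest list median, −5.03 in EY and −1.70 in Y, and the other hair factors lie on both sides of 0.

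Markers of tongue epithelium were present in every mouse. Krt13 had 46629 to 88788 TPM in N and 18471 to 27609 in EY, where Krt14 had 10196 to 24658. By reads per kb of exon the EY medians were 7469 for Krt13 and 7060 for Krt14, with overlapping ranges. Of 10 tissue markers, 6 were called lower in EY, Krt15, Krt4, Krt13, Krt76, Krt36 and Krt84, and Krt14 was called higher at 1.43. In Y only Krt76 was called, at −2.50. Markers of other cells moved as well. Fibroblast markers summed to 417, 266, 117, 97.9 and 87.3 TPM in the N mice, 148, 134, 116, 66.4 and 223 in E, 59.8, 75.5 and 72.5 in Y, and 126, 139, 248, 63.8, 113 and 305 in EY. By median reads per kb of exon, used here to name the leading gene of each list, Dcn came first in N, E and Y and Vim in EY. Of 8 fibroblast markers 1, Dcn, was called lower in EY against N, while 7 lay above 0, with a list median of 0.47. After scaling 3 lay below 0, and that median was 0.098. T cell markers summed to 17.2, 3.85, 3.54, 1.31 and 11.1 TPM in N. They reached 4.02 to 23.5 among the E mice, 12.6 to 22.8 among the Y mice and 26.8 to 54.4 among the EY mice, led by Trbc2. Of 8 T cell markers 3, Cd3d, Lck and Trbc2, were called higher in EY. In E against N 1 of 8, Lck, was called higher (limma adjusted p 0.00797), with 0 after scaling and 0 by voom. Neutrophil markers summed to 0.978 to 7.62 TPM across N, 0.310 to 7.73 across E, 2.41 to 23.8 across Y and 1.48 to 119 across EY. They were led by Csf3r in N and E and by Retnlg in Y and EY. Of them 2 of 6, Ly6g and Cd177, were called higher in EY, and Ly6g was at 0 in all N, E and Y mice.

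Muscle markers, led by Acta1 in N, E and EY and by Mylpf in Y, summed to 12.1 to 234 TPM for N, 11.4 to 132 for E, 7.22 to 138 for Y and 34.8 to 1271 for EY. Limma called 0 of 8 in EY, with 1 at an unadjusted p below 0.05 and 0 by voom. Endothelial markers, led by Cdh5 in N and E and by Pecam1 in Y and EY, summed to 0.141 to 1.14 in N mice, 0.123 to 1.04 in E mice, 0.170 to 0.381 in Y mice and 0.327 to 3.58 in EY mice, and limma called 0 of 4, with 0 at an unadjusted p below 0.05 and 0 by voom. Taste cell markers, led by Tas1r3 in E and Y, by Krt8 in EY and by Krt8 and Tas1r3 nearly alike in N, summed to 4.93 to 19.3 with N, 4.11 to 11.8 with E, 2.39 to 10.04 with Y and 6.25 to 92.6 with EY, limma called 0 of 4 with 1 at an unadjusted p below 0.05 and 0 by voom, and Krt20 was at 0 in all Y and EY mice. Krt8 made up 87.2 of the 92.6 TPM of EY mouse 1, and Gnat3, which was not tested, was at 0 in 3 of 6 EY mice. Melanocyte markers, led by Pmel, summed to 5.31 to 7.34 over N, 6.09 to 9.87 over E, 4.52 to 7.41 over Y and 4.31 to 9.44 over EY, and 1 of 4, Dct, was called lower. In most groups of these cell lists the leading gene overlapped the next, so that order is a description. The part of these cells in the changes of the 7 factors was not tested.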

How the data were processed

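PolyA RNA of whole tongue epithelium from 19 mice was measured by bulk RNA sequencing, and the authors deposited 1 table of TPM by gene symbol. Per the labels, reads were aligned with STAR 2.7.9 to GRCm39, sorted with SAMtools 1.7 and counted with HTSeq 0.13.5, and DESeq2 1.34.0 was used by the authors; how the deposited TPM were made from the counts is not stated. Whole reads were recovered from the steps of the TPM for 24680 of 24680 genes above 0 (tolerance 0.01), giving 8273506 to 11010724 reads per mouse. The length within the TPM was within 10% of the GENCODE M21 span of the gene, introns included, for 98.7% of 23834 genes, and within 10% of the summed exons for 6.21%.

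Groups followed the labels. The 22745 genes that reached 0.1 TPM in 3 or more mice were fitted with limma 3.58.1 in R 4.3.3 on log2(TPM + 0.1), with 1 mean per group, eBayes with trend and Benjamini-Hochberg adjustment over all of them. Other values were computed with Python 3.11.15. The 7 genes are each named with values in all groups, any gene of the lists may be named with its list, and for each of the 7 the 3 genes with the highest correlation are named. The members and lists were chosen with earlier results of these data known. Alternatives were other pseudocounts, filters, scalings, thresholds and N mice, the compared groups alone, robust eBayes, mouse number as a block, limma voom on recovered reads, and leaving out each mouse. Missing symbols were not analysed here.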

Additional observations from a re-analysis of the deposited data

Results flagged for a closer look

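In each group of 4 to 10 mice the gap between the most extreme mouse and its neighbour was divided by the whole range. This ratio was taken on TPM without a logarithm and compared with Dixon's 95% critical value. Normally distributed values pass it in about 1 in 20 groups, and whether TPM are so distributed was not tested. Ratios of log2 values are not given here, so the results below hold for the TPM scale only. Of 21 tests of the 7 genes 1 passed, Msx1 in N, where N mouse 2 at 6.43 TPM stood apart with a ratio of 0.714. Of 42 tests of the summed gene lists, markers and others, 5 passed, all at the highest mouse. The ratios were 0.789 for muscle in N, 0.792 for muscle in E, 0.857 for muscle in EY, 0.759 for endothelial markers in EY and 0.808 for neutrophil markers in N. In EY the muscle and endothelial sums were both highest in mouse 3, at 1271 and 3.58 TPM, 1 of the EY mice with Msx1 reads.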

How the results depend on the processing

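The count of genes called in EY against N was 5, with 4 at a pseudocount of 1 TPM and 5 to 6 under the other alternatives, and in E against N it was 0 in all of them. In Y against N it was 0 and became 1 with median-of-ratios scaling, 1 with quantile normalization, 1 with voom and 2 at adjusted p below 0.05, and 0 to 1 without each mouse in turn. In EY against Y it was 0 and became 2 at adjusted p below 0.05. In EY against E it was 5, with 4 at a pseudocount of 1 TPM and 6 with voom or at adjusted p below 0.05. Leaving out each mouse in turn gave 5 to 6 for EY against E. At a pseudocount of 1 TPM Lef1 was −0.55 there and lost its call, and voom added Msx1 at −3.30. With mouse number as a replicate block the counts were 5 in EY and 0 in Y. For the interaction the groups compared are all 4, so that alternative is the same fit.

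Changes of sign were seen in values that were not called. Foxq1 in EY against N went from 0.08 to −0.30 with median-of-ratios scaling, −0.34 with quantile normalization, −0.064 with only the 3 N mice that carry Krt14-CreERT and LSL-rtTA, and −0.10 with voom, and ran from −0.038 to 0.23 without each mouse. In E against N, Hoxc13 became −0.053, Foxn1 −0.043 and Dlx3 −0.077 with median-of-ratios scaling. With quantile normalization Hoxc13 became −0.082, Foxn1 −0.036, Msx2 −0.013 and Dlx3 −0.11. With the 3 N mice Foxn1 became −0.026 and Dlx3 −0.0094. Without each mouse, E against N ran from −0.17 to 0.23 for Hoxc13, −0.032 to 0.21 for Foxn1, −0.42 to 0.11 for Msx1, −0.073 to 0.43 for Msx2 and −0.088 to 0.23 for Dlx3. Msx1 became 0.080 in EY against Y and 0.25 in the interaction at a pseudocount of 1 TPM, and ran from −1.21 to 0.88 and from −0.996 to 1.09 without each mouse. The cause was not tested. The few Msx1 reads, 0 in 4 EY mice, limit what its values can show.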
